A study of Mus musculus with 6 samples.

Results

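The mitochondrial genome transcripts are the 37 rows of the deposited count table whose GENCODE M21 symbol starts with mt-, out of 54385 rows in all. They are the 37 genes that the annotation places on the mitochondrial chromosome of GRCm38: 13 protein-coding genes, 2 rRNA genes and 22 tRNA genes. Membership of each row came from the symbol alone, while the set as a whole was chosen with earlier results of these data known. The libraries were made from polyadenylated RNA of interscapular brown fat, taken from chow-fed C57BL/6N mice at 20 weeks of age. Wild type (WT, genotype wt/wt) gave 3 libraries and ADCY3∆AT, the Adcy3-AT knockout, gave 3. Interscapular stands in each sample's own label, while the design text of the series names the inguinal depot. The sources used here do not state whether the replicates came from separate mice, how the deletion was made, or whether strand was kept in the libraries or in the counting. For that reason a p-value speaks at most of the spread among these libraries, which may be partly technical.

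The mitochondrial genome is a small circle whose strands, heavy and light, are each transcribed as long precursors. Most mRNAs and both rRNAs are punctuated by tRNAs, and cutting the tRNAs out of the precursor frees the RNAs between them, after which most mRNAs are polyadenylated. The 13 proteins are core subunits of respiratory complexes I, III and IV and of the ATP synthase (complex V), and all other subunits, with the polymerase and the ribosomal proteins, come from the nucleus. Brown adipocytes are packed with mitochondria, in which UCP1 lets the proton gradient built by the respiratory chain run off as heat.

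Library totals ran from 13758492 to 19592156 estimated counts. Adcy3, the gene the knockout is named for, was at 248, 209 and 166 CPM (counts scaled to the size of the library) in the WT libraries against 167, 195 and 240 CPM in the knockout, which overlapped (log2 fold change -0.05, edgeR adjusted p = 0.894). A row without a symbol whose identifier ends in the same digits as that of Adcy3 was at 215, 197 and 118 CPM in the WT libraries against 1.27, 0 and 0 CPM in the knockout. The table does not say what this row is. Markers of brown adipocytes were present in each library, with Ucp1 at 3679 to 5432 CPM. The 16 skeletal muscle markers summed to 70.5, 174 and 819 CPM in the WT libraries against 47.3 to 49.5 CPM in the knockout, with Pvalb at 0 in all knockout libraries. Of the 14 muscle markers tested, 8 were called lower (13 with DESeq2 and 0 with limma-voom), where edgeR called 1.67% of all genes lower. In bulk tissue, fewer cells of a type and less RNA per cell cannot be told apart.

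The nucleus of the mouse holds near-identical copies of a stretch of the mitochondrial genome, and these matter for the values below. On the minus strand of chromosome 1 of GRCm38, between bases 24611535 and 24616197, GENCODE M21 annotates 7 genes that each match a mitochondrial mRNA at 99% identity or more. In order they match mt-Nd4, mt-Nd4l, mt-Nd3, mt-Co3, mt-Atp6, mt-Co2 and the 3′ end of mt-Co1. The first bases of mt-Nd3 (chrM:9459-9806, plus strand) and of its copy Gm28438 are shown because this pair shared its counts most evenly. The capitals mark the base that differs, T3C, counted from 1 at the first base of mt-Nd3. In the reference it is the only difference over the 345 bases of the copy. Which base the mitochondrial genome of these mice carries there was not tested. The division of counts between both rows therefore does not show which genome the reads came from.
mt-Nd3: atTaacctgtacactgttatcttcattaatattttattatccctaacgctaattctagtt
Gm28438: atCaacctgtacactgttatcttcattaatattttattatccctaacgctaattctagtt
In the same way mt-Co1 (chrM:5328-6872, plus strand) and Gm29216 differ at A1066T, counted from the first base of mt-Co1, and at no other base of the 483 that align. Bases 1063 to 1122 of mt-Co1 and the matching bases of the copy are given here, with that base in capitals.
mt-Co1: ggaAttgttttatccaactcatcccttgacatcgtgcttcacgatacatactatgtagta
Gm29216: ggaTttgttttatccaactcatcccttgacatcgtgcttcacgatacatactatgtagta
The other 5 copies are identical to their mitochondrial gene over the whole length of the copy, so no read that lies within them can be told apart by its bases.

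Adjoining mitochondrial genes also share bases with each other. The 3′ end of mt-Atp8 overlaps the 5′ end of mt-Atp6 by 43 bases, and that of mt-Nd4l overlaps mt-Nd4 by 7 bases. Each pair is carried on a bicistronic mRNA, and the overlap is read in different frames. The junctions are shown, on the plus strand, with the shared bases in capitals; the first runs over chrM:7907-7989 and the second over chrM:10147-10193.
mt-Atp8 and mt-Atp6: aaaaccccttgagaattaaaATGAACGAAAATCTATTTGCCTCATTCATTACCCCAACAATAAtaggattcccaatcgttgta
mt-Nd4l and mt-Nd4: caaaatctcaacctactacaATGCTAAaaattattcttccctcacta
Some mitochondrial mRNAs end inside their stop codon, which the poly(A) tail completes. In mouse these include mt-Co3, mt-Nd4 and mt-Cytb, whose annotated lengths of 784, 1378 and 1144 bases each leave 1 base past a whole number of codons. Their last 25 bases are shown, with that final base in capitals.
mt-Co3: gtctccatttattgatgaggatctT
mt-Nd4: aaactaattacaggcctgacaataT
mt-Cytb: gacaaaatactaaaattatatccaT

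The share of counts from mitochondrial genes overlapped between genotypes. The 37 rows held 23.8%, 24.4% and 24.3% of all estimated counts in the WT libraries and 23.9%, 21.9% and 24.4% in the knockout libraries. The groups overlapped, and ADCY3∆AT replicate 2 was the lowest library. The means were 24.2% ± 0.329 (SD, n = 3) and 23.4% ± 1.33 (SD, n = 3), a difference of -0.76 percentage points that shrank to -0.01 without ADCY3∆AT replicate 2. In that library 9 of the 13 protein-coding rows had their lowest CPM of all libraries. Protein-coding rows made up 93.9% to 95.3% of the mitochondrial counts, the rRNAs 4.46% to 5.86% and the tRNAs 0.258% to 0.292%. The tRNA share was lower in each knockout library (0.258%, 0.268% and 0.262%) than in any WT library (0.270%, 0.281% and 0.292%). A single row, mt-Te, took 0.112%, 0.115% and 0.120% in the WT libraries against 0.0668%, 0.0721% and 0.104% in the knockout. The lower share was not general to tRNAs: of 17 tested tRNA rows, 13 had a positive log2 fold change and 4 a negative one.

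Levels of the mRNAs, most of which derive from heavy-strand precursors, differed widely. On the scale of CPM per kilobase of gene length, averaged over the 6 libraries, mt-Atp6 (36282), mt-Co1 (35560) and mt-Co2 (33898) stood highest. They encode a subunit of the proton channel of ATP synthase and the catalytic subunits of cytochrome c oxidase. The ranges of these 3 over the libraries overlapped, so their order was not resolved. mt-Atp8 (28001), mt-Co3 (26559) and mt-Cytb (24612), the last being the cytochrome b of complex III, came next, and each overlapped its neighbour. The complex I mRNAs mt-Nd4 (16017), mt-Nd1 (15526), mt-Nd2 (13460) and mt-Nd4l (13105 CPM per kilobase) followed. The range of mt-Cytb (17622 to 27008 CPM per kilobase) did not overlap that of mt-Nd4 but did overlap that of mt-Nd1 (12757 to 18264 CPM per kilobase). The lowest of these 4 in any library was 11769 CPM per kilobase, for mt-Nd4l. Below a gap in the ranges came mt-Nd6 (5538), the only mRNA of the light strand, then mt-Rnr2 (5497), mt-Nd5 (4949), mt-Rnr1 (3843) and mt-Nd3 (3649 CPM per kilobase). The last place of mt-Nd3 depended on the division of counts with its nuclear copy: with that copy added it averaged 7453 CPM per kilobase, above mt-Nd6.

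Neighbours on 1 bicistronic mRNA did not give equal values per length. The values were divided by whole gene length, with no allowance for fragment length or for shared bases. mt-Atp8 and mt-Nd4l are short, at 204 and 297 bases, and the part of this in the ratios was not tested. The ratio of mt-Atp8 to mt-Atp6 in CPM per kilobase ran from 0.714 to 0.836 over the libraries, and from 0.696 to 0.769 once the counts of the copy Gm10925 were added to mt-Atp6. The ratio of mt-Nd4l to mt-Nd4 ran from 0.728 to 0.904. By contrast mt-Nd5, which also lies downstream on the heavy-strand precursor but forms its own mRNA, was at 0.274 to 0.347 of mt-Nd4. mt-Cytb, further downstream, was at 3.71 to 6.03 times mt-Nd5. The large rRNA, mt-Rnr2, was at 1.26 to 1.59 times the small rRNA, mt-Rnr1. These are libraries of polyadenylated RNA, so levels of the rRNA, tRNA and mt-Nd6 rows are those of the fraction that such libraries capture.

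**Figure D1:**
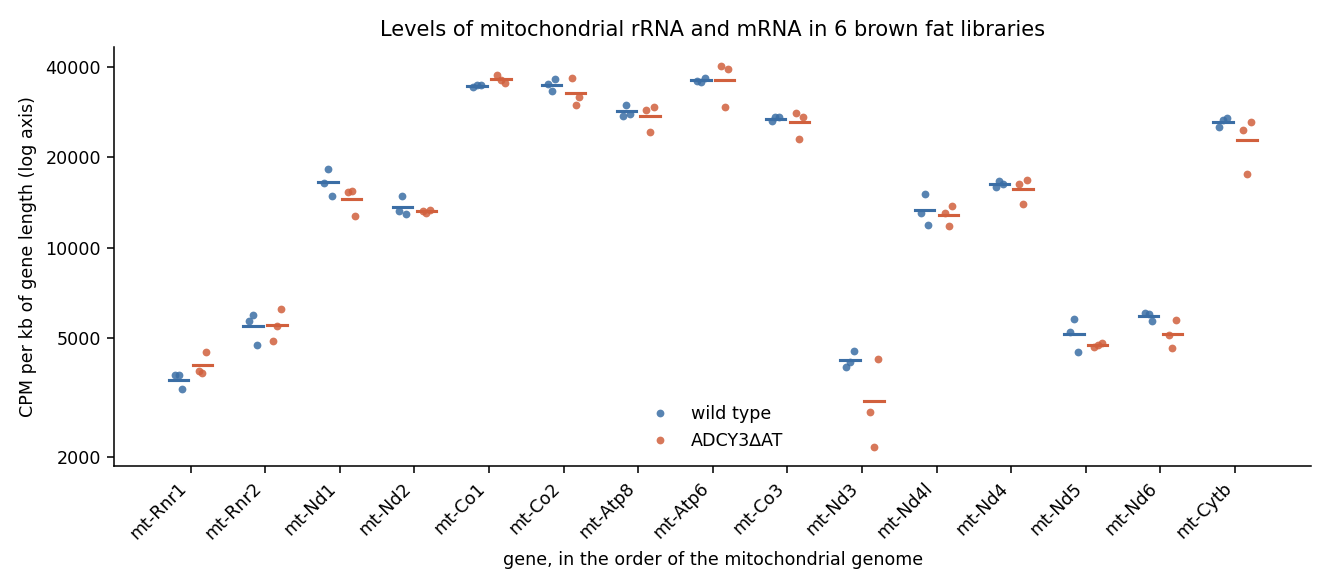
CPM per kilobase of gene length (log axis) of the 2 rRNA and 13 protein-coding genes in the order of the mitochondrial genome, 1 point per library (wild type blue, ADCY3∆AT orange) with the mean of each genotype as a line. By mean, mt-Atp6 to mt-Cytb stand highest, 4 complex I mRNAs follow, with mt-Nd1 reaching into the range of mt-Cytb, and both rRNAs, mt-Nd3, mt-Nd5 and mt-Nd6 lie below a gap, and in most genes the points of both genotypes overlap. Counts of the nuclear copies are left out.

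No mitochondrial gene was called between the genotypes. Of the 37 members, 32 passed the filter on low counts: 13 protein-coding, 2 rRNA and 17 tRNA rows. The 5 tRNA rows that did not pass (mt-Tf, mt-Tv, mt-Tw, mt-Td and mt-Tk) held at most 7 estimated counts in any library. With the quasi-likelihood F test of edgeR, two-sided, 0 of the 32 had a Benjamini-Hochberg adjusted p under 0.05, where 4.30% of the 14332 genes tested were called. limma-voom also called 0 and DESeq2 called 2, the tRNA rows mt-Tc and mt-Te, where it called 6.98% of all genes. Summing rows with their nuclear copies, described below for mt-Nd3, left the count at 0 (4.33% of genes). With no filter on low counts 4 rows were called, mt-Tc, mt-Ty, mt-Nd3 and mt-Te, where 5.72% of genes were. In that fit mt-Nd3, mt-Nd6 and mt-Rnr1 all had an SE of 0.08, beside 0.21, 0.09 and 0.09 with the filter. The SE of abundant rows thus did not follow their spread, and these calls do not compare with those of the filtered fit. At an unadjusted p under 0.05 there were 4 of 32 (mt-Nd6, mt-Tc, mt-Ty and mt-Te), a smaller share than the 22.6% of all tested genes. The CPM of the genotypes did not overlap for 4 of the 32 (mt-Rnr1, mt-Co1 and mt-Tc higher, mt-Te lower), where this held for 29.0% of all tested genes. The median log2 fold change, ADCY3∆AT minus WT, was -0.06 over the protein-coding genes, 0.09 over the rRNAs and 0.23 over the tested tRNAs, beside -0.007 over all tested genes.

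No complex I mRNA was called, and all 7 had a log2 fold change below 0 in the fit over all libraries. mt-Nd1, which encodes a subunit at the base of the membrane arm, was at 15737, 17478 and 14272 CPM in the WT libraries against 14721, 14734 and 12209 CPM in the knockout libraries (log2 fold change -0.19, SE 0.11, edgeR adjusted p = 0.332). The groups overlapped. mt-Nd2 (-0.05), mt-Nd4 (-0.06), mt-Nd4l (-0.05) and mt-Nd5 (-0.13), which encode other membrane-arm subunits, had log2 fold changes nearer 0. The sign turned without WT replicate 2 for mt-Nd2 (0.02), without WT replicate 2 or ADCY3∆AT replicate 2 for mt-Nd4l (0.05 and 0.01), and without ADCY3∆AT replicate 2 for mt-Nd4 (0.03). mt-Nd6 was at 3152, 3111 and 2965 CPM in the WT libraries against 2651, 2395 and 2973 CPM in the knockout. The highest knockout library lay just above the lowest WT library, and the log2 fold change of -0.20 (SE 0.09, 95% interval -0.40 to 0.00) was not called (edgeR adjusted p = 0.219).

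mt-Nd3 had the lowest estimate of any protein-coding row, and that estimate depended on how counts were divided with its nuclear copy. The mt-Nd3 row held 1391, 1447 and 1569 CPM in the WT libraries against 983, 753 and 1475 CPM in the knockout. Knockout replicates 1 and 2 were low, while replicate 3 lay within the WT range. On the log2 scale the knockout was at -0.46 against wild type (SE 0.21, 95% interval -0.93 to 0.02), with an edgeR adjusted p of 0.241. The copy Gm28438 took 47.4%, 46.3% and 42.4% of the sum of both rows in the WT libraries against 62.6%, 66.7% and 43.3% in the knockout, so it was high in the same libraries in which mt-Nd3 was low. These shares are those of rows, and the genome their reads came from was not tested. Summed, the rows held 2644, 2693 and 2727 CPM in the WT libraries against 2632, 2262 and 2603 CPM in the knockout. On the log2 scale the sum differed by -0.10 (SE 0.07, 95% interval -0.28 to 0.07; edgeR adjusted p = 0.448). Each knockout sum lay below the WT sums, that of replicate 2 furthest. Without ADCY3∆AT replicate 2 the mt-Nd3 row alone was at -0.25 (edgeR adjusted p = 0.443) and the sum at -0.04. Without ADCY3∆AT replicate 3 that row was called lower (-0.76, edgeR adjusted p = 0.0304), in a fit that called 2.08% of genes and 0.746% lower, and the sum was not (-0.13, adjusted p = 0.428). On the sum, mt-Nd3 stood at 7453 CPM per kilobase, above both rRNAs.

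The other copies received uneven shares of the counts. Gm10925 took 5.97%, 8.09% and 8.40% of its sum with mt-Atp6 in the WT libraries against 0.676%, 6.91% and 2.54% in the knockout. Gm28661 took 9.62%, 16.5% and 9.57% of its sum with mt-Co2 in the WT libraries against 4.05%, 8.50% and 14.6% in the knockout. Gm29216 took 2.34% to 4.40% of its sum with mt-Co1. In contrast Gm28439 (matching mt-Nd4), Gm10222 (mt-Nd4l) and Gm28437 (mt-Co3) are listed at 0 or within 0.002 counts of it in each library. All copies together held 0.532% to 0.902% of the counts, and no copy was called between genotypes in the filtered fit over all libraries (Gm10925, log2 fold change -1.34, had an edgeR adjusted p of 0.221). With no filter on low counts edgeR called Gm10925 lower (-1.31, adjusted p = 4.12e-52) and Gm28438 higher (0.25, adjusted p = 0.0420), where 5.72% of genes were called. Both had an SE of 0.08 in that fit, beside 0.58 and 0.13 with the filter. These p-values therefore do not measure the spread of either row among the libraries. Relative to the mitochondrial total, a scale described below, Gm10925 was again called with no filter (-1.23, where 4.44% of genes were). Its SE there was 0.11, beside 0.57 with the filter. On that scale Gm28438 was called without ADCY3∆AT replicate 3 (0.45, edgeR adjusted p = 0.0446, where 2.75% of genes were). How the estimator divided identical reads was not tested.

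**Figure D2:**
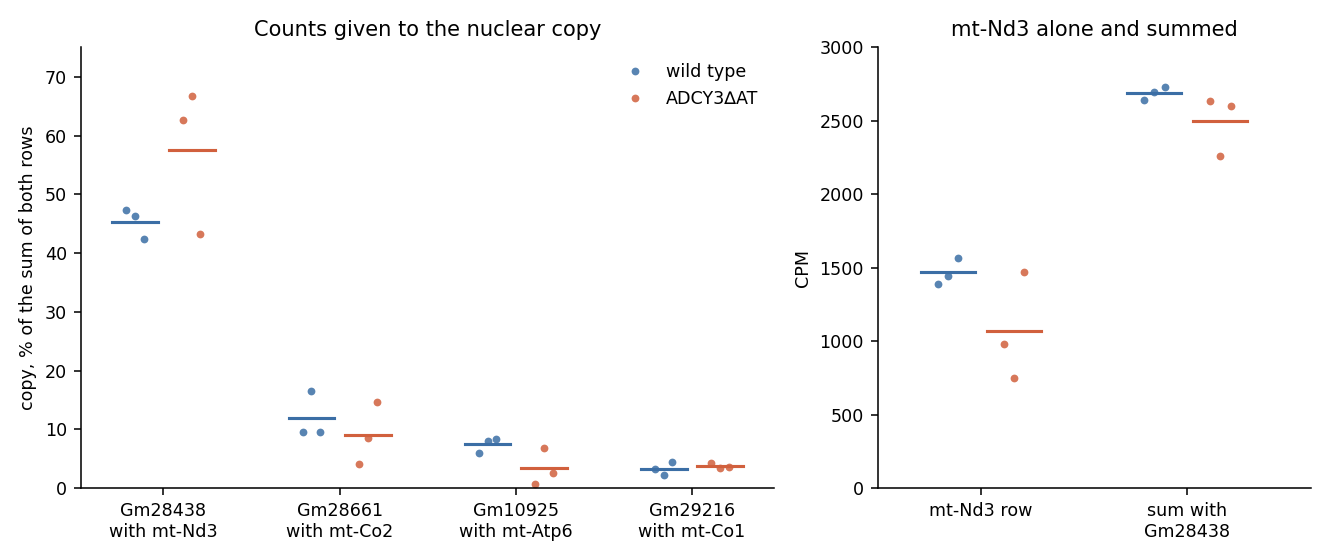
Left, the share of the counts of a mitochondrial row and its nuclear copy that was given to the copy (percent, 1 point per library, wild type blue and ADCY3∆AT orange, lines are means). Right, CPM of the mt-Nd3 row alone and of its sum with Gm28438. The copy of mt-Nd3 holds 42.4% to 66.7% of the shared counts, and the sum varies less between libraries than the mt-Nd3 row does.

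The complex IV mRNAs had estimates of both signs, none past the test. mt-Co1, the catalytic core of cytochrome c oxidase and the most abundant row, was at 52890, 53946 and 53962 CPM in the WT libraries against 58168, 55969 and 54708 CPM in the knockout. Each knockout library was above each WT library, but the log2 fold change was only 0.07 (SE 0.07, 95% interval -0.09 to 0.23, edgeR adjusted p = 0.586). mt-Co2, which receives electrons from cytochrome c, was at 24058, 22734 and 24977 CPM in the WT libraries against 25113, 20407 and 21829 CPM in the knockout, which overlapped (-0.09, adjusted p = 0.599). Summed with its copy, mt-Co2 was at 26621, 27226 and 27620 CPM in the WT libraries against 26172, 22300 and 25550 CPM in the knockout. All knockout sums then lay below the WT sums (log2 fold change -0.14, SE 0.08, edgeR adjusted p = 0.337). mt-Co3 was at 20680 to 21385 CPM in the WT libraries against 18089 to 22102 CPM in the knockout (-0.04, or 0.04 without ADCY3∆AT replicate 2). With copies summed, the CPM of the genotypes did not overlap for mt-Nd3 and mt-Co2 (lower) and mt-Co1 (higher) among the 4 summed rows that held counts of a copy, where 29.0% of all genes did not overlap.

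mt-Cytb, the only mitochondrial subunit of complex III, had 1 low library. It was at 28990, 30517 and 30897 CPM in the WT libraries against 28328, 20159 and 30044 CPM in the knockout. The groups overlapped, and the estimate of -0.20 on the log2 scale (SE 0.14, edgeR adjusted p = 0.427) was -0.04 without ADCY3∆AT replicate 2. Of the ATP synthase mRNAs, mt-Atp6 was at 24372 to 25038 CPM in the WT libraries against 20099 to 27404 CPM in the knockout. Its log2 fold change of 0.01 (adjusted p = 0.979) turned to -0.03 under upper-quartile scaling and -0.06 with its copy added. mt-Atp8 was at 5623 to 6103 CPM and 4973 to 6013 CPM (-0.05, adjusted p = 0.790, or 0.03 without ADCY3∆AT replicate 2). Of the 13 protein-coding genes, 11 had a log2 fold change below 0, where 51.1% of all tested genes did. The signs of mt-Nd4, mt-Nd4l, mt-Co3 and mt-Atp8 turned without ADCY3∆AT replicate 2.

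Among the rRNAs, mt-Rnr1, the RNA of the small mitochondrial ribosomal subunit, was at 3587, 3577 and 3218 CPM in the WT libraries against 3706, 3636 and 4297 CPM in the knockout. The knockout libraries all lay above the WT libraries, by 0.16 on the log2 scale (SE 0.09, 95% interval -0.03 to 0.36, edgeR adjusted p = 0.307). mt-Rnr2, the RNA of the large subunit, was at 9013, 9431 and 7472 CPM in the WT libraries against 7705, 8660 and 9896 CPM in the knockout. The groups overlapped, and the log2 fold change of 0.02 became -0.02 under upper-quartile scaling. It was -0.08 without WT replicate 3 and -0.08 without ADCY3∆AT replicate 3.

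**Figure D3:**
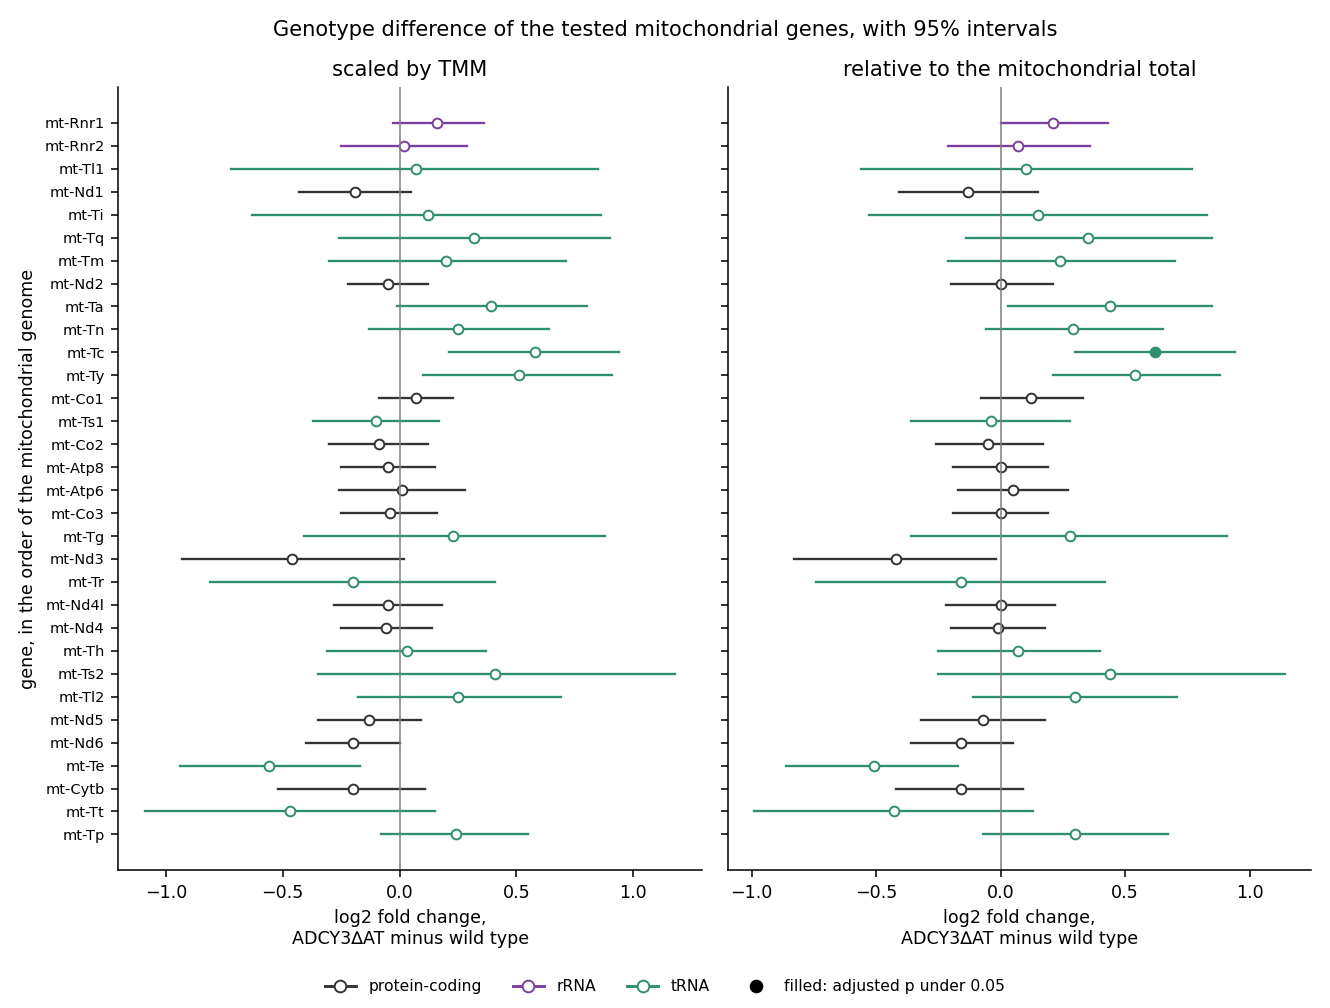
Log2 fold change, ADCY3∆AT minus wild type, with its 95% interval for the 32 tested mitochondrial genes in genome order, from the edgeR fit with TMM scaling, which is a trimmed mean of M-values (left) and with each library scaled to its mitochondrial total (right). Filled points have an adjusted p under 0.05, which only mt-Tc reaches and only on the right, and the widest interval on the left is that of the tRNA row mt-Tl1 (-0.72 to 0.85).

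The tRNA rows were dominated by a few genes of the light strand, whose RNA is complementary to the heavy-strand transcripts. The 8 tRNA genes on the minus strand of the reference held 82.6% to 90.5% of the tRNA counts. Those of highest mean count were mt-Te, mt-Ts1 and mt-Tp, the tRNAs for glutamate, serine (UCN codons) and proline, with 69.7% to 84.0% between them. mt-Te averaged 3418 CPM per kilobase over the 6 libraries, mt-Ts1 2825 and mt-Tp 1120, and no other tRNA row averaged more than 446. In the WT libraries mt-Te (3902, 4147 and 4161 CPM per kilobase) stood above mt-Rnr1 (3756, 3746 and 3370), and in the knockout libraries (2383, 2252 and 3663) below it (3881, 3808 and 4500 CPM per kilobase). Mature tRNAs carry no poly(A) tail, and the form of RNA that gave these counts was not measured. The whole sequences of 4 tRNAs are shown, 5′ to 3′ as DNA with the anticodon in capitals: mt-Tc (chrM:5192-5257, minus strand) and mt-Ty (chrM:5260-5326, minus), which had the highest fold changes, mt-Te (chrM:14071-14139, minus), which had the lowest, and the abundant mt-Ts1 (chrM:6870-6938, minus).
mt-Tc: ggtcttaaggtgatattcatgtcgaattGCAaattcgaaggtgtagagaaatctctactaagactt
mt-Ty: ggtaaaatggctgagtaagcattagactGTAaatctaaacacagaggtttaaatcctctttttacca
mt-Te: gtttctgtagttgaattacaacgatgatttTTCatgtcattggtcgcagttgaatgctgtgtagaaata
mt-Ts1: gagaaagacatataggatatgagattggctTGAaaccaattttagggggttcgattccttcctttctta
The mt-Ts1 gene overlaps the 3′ end of mt-Co1 on the other strand by 3 bases, and mt-Te lies directly beside mt-Nd6 on the same strand. Without strand, reads of a light-strand tRNA and of heavy-strand RNA opposite it cannot be told apart. The same holds for mt-Nd6.

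Between genotypes, mt-Tc and mt-Ty were higher and mt-Te lower in estimate. mt-Tc, the cysteine tRNA, was at 21.7, 21.2 and 15.3 CPM in the WT libraries against 33.7, 24.6 and 28.5 CPM in the knockout, from 272 to 612 counts per library. The groups did not overlap (log2 fold change 0.58, SE 0.16, 95% interval 0.21 to 0.94, edgeR adjusted p = 0.0818, DESeq2 adjusted p = 0.0179). mt-Ty, the tyrosine tRNA next to it on the same strand, was at 13.3, 15.4 and 11.4 CPM in the WT libraries against 20.3, 14.3 and 22.1 CPM in the knockout. Knockout replicate 2 fell inside the WT range (log2 fold change 0.51, SE 0.18, edgeR adjusted p = 0.139). The asparagine and alanine tRNAs of the same cluster, mt-Tn (0.25, adjusted p = 0.412) and mt-Ta (0.39, adjusted p = 0.231), also had positive estimates in edgeR and were not called.

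mt-Te was at 269, 286 and 287 CPM in the WT libraries against 164, 155 and 253 CPM in the knockout. The 3 knockout libraries lay below the WT libraries, replicate 3 only narrowly. The estimate on the log2 scale was -0.56 (SE 0.17, 95% interval -0.94 to -0.17), with an adjusted p of 0.103 in edgeR and 0.0112 in DESeq2. Without ADCY3∆AT replicate 3 edgeR called mt-Te lower (-0.81, adjusted p = 0.00540), where 2.08% of genes were called and 0.746% lower. Without any 1 other library edgeR did not call it (-0.43 to -0.58). For the other abundant rows the genotypes overlapped: mt-Ts1 was at 186 to 232 CPM in the WT libraries against 162 to 202 CPM in the knockout (-0.10, or 0.02 without WT replicate 3), and mt-Tp at 61.8 to 76.3 CPM and 68.9 to 98.2 CPM (0.24, edgeR adjusted p = 0.350). Over the 17 tested tRNAs, 13 had a positive and 4 a negative log2 fold change.

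The other 10 tested tRNA rows overlapped between genotypes and none was called in this fit. mt-Tl1, the leucine tRNA for UUR codons, which lies directly after the large rRNA, was the most abundant of them. It was at 28.3, 47.4 and 22.7 CPM in the WT libraries against 51.8, 22.7 and 27.7 CPM in those of the knockout. Its estimate was 0.07 on the log2 scale, with an SE of 0.34. WT replicate 2 and knockout replicate 1 were high and the other 4 libraries low. The tRNAs for isoleucine, glutamine and methionine lie side by side between mt-Nd1 and mt-Nd2. mt-Ti was at 2.77 ± 0.717 CPM in the WT libraries against 2.96 ± 1.11 CPM in those of the knockout (SD, n = 3 each here and for the rows that follow; log2 fold change 0.12). mt-Tq was at 5.82 ± 1.01 against 7.21 ± 2.36 CPM (0.32) and mt-Tm at 6.35 ± 1.04 against 7.27 ± 1.97 CPM (0.20). The histidine, serine (AGY codons) and leucine (CUN codons) tRNAs form a cluster between mt-Nd4 and mt-Nd5. mt-Th was at 13.4 ± 1.14 against 13.7 ± 2.78 CPM (0.03), mt-Ts2 at 3.02 ± 1.11 against 3.99 ± 1.41 CPM (0.41, SE 0.33, edgeR adjusted p = 0.510) and mt-Tl2 at 8.99 ± 0.597 against 10.7 ± 2.95 CPM (0.25). In all 3 of them ADCY3∆AT replicate 1 was the highest library. Of the scarcest rows, mt-Tg for glycine was at 2.03 ± 0.442 against 2.38 ± 0.619 CPM (0.23) and mt-Tr for arginine at 3.01 ± 0.649 against 2.63 ± 0.667 CPM (-0.20). mt-Tt, the threonine tRNA, was at 4.05, 7.39 and 4.96 CPM in the WT libraries against 4.95, 2.99 and 3.80 CPM in the knockout (-0.47, SE 0.27, 95% interval -1.09 to 0.15, edgeR adjusted p = 0.349). It had the lowest estimate of the tRNA rows after mt-Te, with knockout replicates 2 and 3 below all WT libraries and replicate 1 among them.

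**Figure D4:**
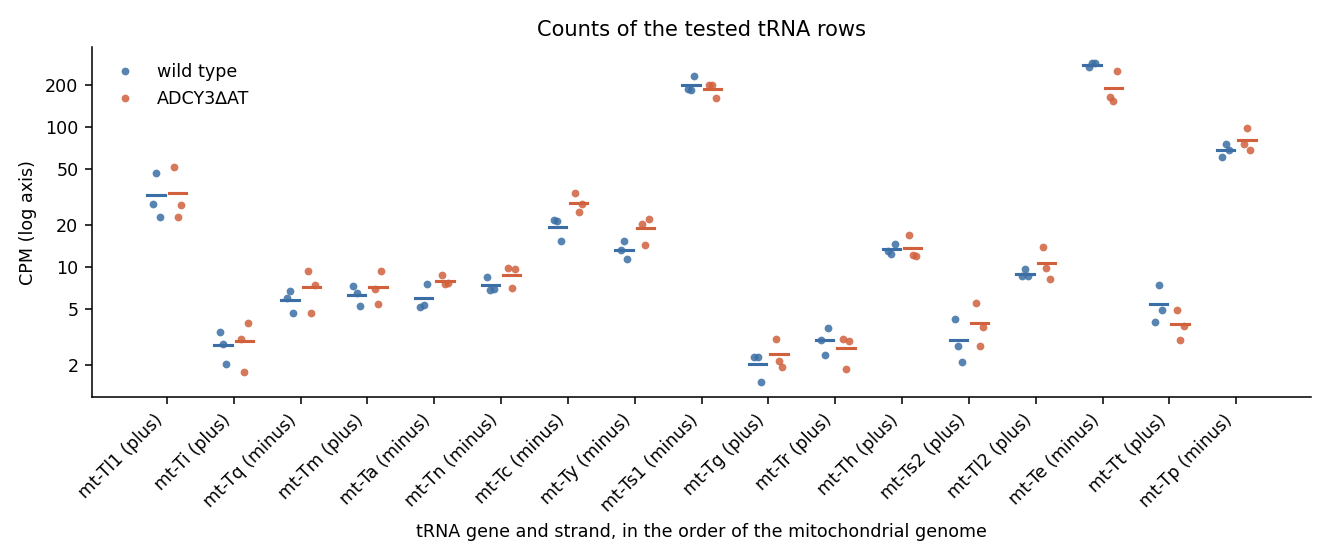
CPM (log axis) of the 17 tested tRNA rows in genome order, with the strand of each gene in the axis label, 1 point per library (wild type blue, ADCY3∆AT orange) and the mean of each genotype as a line. mt-Te, mt-Ts1 and mt-Tp stand above the rest, the points of mt-Tc do not overlap between genotypes, and 2 knockout libraries of mt-Te lie well below the wild-type ones.

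Scaling each library to its own mitochondrial total asks whether 1 transcript changed against the others. In this fit edgeR called 4.06% of all genes, and of the 32 mitochondrial rows it called 1, mt-Tc, higher in the knockout (3.01% of genes were). Its log2 fold change was 0.62 (SE 0.14, 95% interval 0.30 to 0.94), or 1.54-fold, with an edgeR adjusted p of 0.0462. That call ended without any 1 library: the log2 fold change was 0.72, 0.67 and 0.48 without WT replicates 1, 2 and 3, and 0.54, 0.67 and 0.65 without knockout replicates 1, 2 and 3, with adjusted p from 0.0751 to 0.108. mt-Ty (0.54, adjusted p = 0.0758), mt-Te (-0.51, adjusted p = 0.0969) and mt-Nd3 (-0.42, adjusted p = 0.234, or -0.05 summed with its copy) were not called by edgeR. DESeq2 called 3 rows on this scale (mt-Tc, mt-Ty and mt-Te, where 6.22% of genes were called), and edgeR with no filter called those and mt-Nd3 (4.44%). With no filter the SE of mt-Nd3 was 0.11, beside 0.18 with the filter, so here too the calls do not compare. Without ADCY3∆AT replicate 3 edgeR called mt-Te (-0.74) and mt-Nd3 (-0.69) lower, where 2.75% of genes were called. WT replicate 3 had the lowest mt-Tc and the highest sum of skeletal muscle markers (819 CPM), and the part of muscle RNA in this result was not tested beyond the fit without that library.

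As shares of the mitochondrial counts, 3 of the 15 protein-coding and rRNA genes did not overlap between genotypes, where 25.6% of all tested genes did not on the same scale. mt-Co1 took 22.1%, 21.7% and 22.5% in the WT libraries against 23.6%, 26.0% and 22.6% in the knockout, with replicate 3 of the knockout barely above the highest WT library. mt-Rnr1 took 1.50%, 1.44% and 1.34% in the WT libraries against 1.51%, 1.69% and 1.77% in the knockout. mt-Nd6 took 1.32%, 1.25% and 1.24% in the WT libraries against 1.08%, 1.11% and 1.23% in the knockout, which was lower. For each, the exact permutation p, two-sided, was 0.10, the smallest that 3 libraries against 3 allow. When rows were summed with their copies, mt-Co1 overlapped and mt-Co2 (10.8% ± 0.272 in the WT libraries against 10.2% ± 0.186 in the knockout, SD, n = 3 each) no longer did. By complex, the subunits of complex I took 27.2% to 30.4% of the mitochondrial counts, complex IV 39.5% to 43.9%, complex V 11.6% to 13.6% and complex III 9.36% to 12.9%, with both genotypes overlapping in all 4.

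Both genomes supply the respiratory chain, and the ratio of their mRNAs overlapped between genotypes. The summed CPM of the 13 mitochondrial mRNAs was 4.81 to 5.08 times that of 78 nuclear genes for subunits of complexes I to V in the WT libraries, and 5.18, 4.69 and 5.17 times in those of the knockout, which overlapped. The means differed by 0.01 on the log2 scale, or -0.01 without WT replicate 1, ADCY3∆AT replicate 1 or ADCY3∆AT replicate 3. Without ADCY3∆AT replicate 2 the difference was 0.06, and the other knockout libraries both lay above the WT libraries. By complex, the ratio overlapped between genotypes for complex I (log2 difference 0.00), complex III (-0.12) and complex V (0.02). For complex IV the ratio was 10.1, 10.2 and 10.2 in the WT libraries against 11.2, 10.5 and 10.5 in the knockout, which was higher in each library. Its denominator, the nuclear complex IV sum, was 9697, 9564 and 9865 CPM in the WT libraries against 9449, 8975 and 9296 CPM in the knockout. That sum was lower in each knockout library, so the ratio alone does not show more mitochondrial complex IV mRNA. Nuclear subunit mRNAs summed to 46270 ± 691 CPM in the WT libraries against 44116 ± 1025 CPM in the knockout (SD, n = 3 each), and each knockout library was lower. Of 77 tested, edgeR, DESeq2 and limma-voom each called 0, 11 had an unadjusted p under 0.05 in edgeR, where 22.6% of all genes did, and 73 had a log2 fold change below 0 (median -0.10), where 51.1% of all genes did. The smallest p belonged to Uqcrq of complex III (-0.20, edgeR adjusted p = 0.107) and Ndufb11 of complex I (-0.18, adjusted p = 0.128).

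Nuclear genes that handle mitochondrial nucleic acids were mostly not called. Of 45 genes for transcription, cleavage, modification and turnover of mitochondrial RNA, edgeR, DESeq2 and limma-voom called 0, and 9 had an unadjusted p under 0.05 in edgeR (median log2 fold change 0.01), a share near the 22.6% of all genes. Mterf2, of the family of mitochondrial transcription termination factors, was at 10.9 ± 0.913 CPM in the WT libraries against 8.24 ± 0.383 CPM in the knockout (SD, n = 3; log2 fold change -0.40, edgeR adjusted p = 0.0900). Tbrg4, a FASTK family RNA-binding protein, had -0.20 (adjusted p = 0.114). None of the 3 tools called any of 11 translation factors (0 calls each), and 1 reached an unadjusted p under 0.05 in edgeR. This was the release factor Mtrf1l (0.40, edgeR adjusted p = 0.154). The elongation factor Tsfm followed (-0.12, adjusted p = 0.364).

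Of 22 genes for the charging of mitochondrial tRNAs (aminoacyl-tRNA synthetases, with Gatb, Gatc and Qrsl1), 1 rose (2.63% of all genes did): Ears2. It encodes the synthetase that charges mt-Te with glutamate. In CPM, Ears2 was at 7.31, 7.69 and 7.55 CPM in the WT libraries against 10.5, 11.2 and 11.1 CPM in the knockout. The groups were well apart (log2 fold change 0.54, SE 0.10, edgeR adjusted p = 0.0301), while mt-Te had -0.56 and was not called by edgeR. The Ears2 call ended without WT replicate 1, 2 or 3 (0.53, 0.56 and 0.55) and without ADCY3∆AT replicate 2 or 3 (0.53 each). Of 11 genes for upkeep of mitochondrial DNA, edgeR called 1 higher, where 2.63% of all genes were. An unadjusted p under 0.05 in edgeR was reached by 4, where 22.6% of all genes did, and log2 fold changes ran from -0.46 to 0.54. The called gene was Mgme1, an exonuclease that trims DNA ends during replication of mitochondrial DNA. It rose from 20.9, 20.3 and 20.3 CPM in wild type to 29.7, 29.2 and 30.5 CPM in the knockout. The difference was 0.54 on the log2 scale (SE 0.07, edgeR adjusted p = 0.00850), and Mgme1 was called in all 6 fits that left out 1 library.

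Among 6 nuclear regulators of mitochondrial genes, edgeR and limma-voom called 0 and DESeq2 called 2, Ppargc1a and Ppargc1b, where it called 6.98% of all genes. In edgeR 3 had an unadjusted p under 0.05, where 22.6% of all genes did. Ppargc1a, the coactivator PGC-1α that promotes mitochondrial biogenesis, was at 22.2, 21.8 and 13.6 CPM in the WT libraries against 26.2, 41.2 and 47.9 CPM in the knockout. The groups did not overlap (log2 fold change 1.01, SE 0.25, edgeR adjusted p = 0.0609, DESeq2 adjusted p = 0.000399), and without ADCY3∆AT replicate 1 edgeR called Ppargc1a higher (1.23, adjusted p = 0.0165, where 3.16% of genes were called). Its relative Ppargc1b was at 74.4, 61.9 and 46.6 CPM in the WT libraries against 96.1, 77.9 and 107 CPM in the knockout (0.62, SE 0.17, edgeR adjusted p = 0.0845, DESeq2 adjusted p = 0.00646). With no filter on low counts edgeR called both higher (1.03 and 0.64), where it called 5.72% of genes. The SEs were 0.11 and 0.10 in that fit, which did not follow the spread of each row.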

How the data were processed

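RNA of 6 libraries was compared, 3 WT and 3 ADCY3∆AT. The values are estimated counts, as the authors deposited them; per the submitters' processing notes, GRCm38, StringTie, Salmon and edgeR were used, with no role or version given. Per the labels' protocols, RNA from TRIzol lysates went into paired-end NEBNext Ultra II libraries. Salmon can divide reads of identical sequence between rows, which bears on the mt- rows with nuclear copies.

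Estimated counts were rounded, filtered with filterByExpr (minimum count 10, minimum total 15), scaled by TMM and tested across all genes with edgeR 4.0.16 in R 4.3.3 (quasi-likelihood F test, all 6 libraries, no covariate). A gene counted as called where the Benjamini-Hochberg adjusted p was under 0.05. CPM values are scaled by TMM. A second fit used each library's mitochondrial total as its library size and no further factors. DESeq2 1.42.0, voom of limma 3.58.1, other scalings, other filters, a replicate block and leaving out each library were alternatives. Single values had an exact permutation test over the 10 divisions of the libraries, smallest p 0.1. Scripts were tested on simulated data. Library totals were 13758492 to 19592156, and the least abundant tested member, mt-Tg, averaged 36.6 counts.

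Copies were found by aligning GENCODE M21 transcripts with BLAST+ 2.17.0 (at least 99% identity over at least 90% of the copy). Summing them with the mt- rows was chosen after seeing the data, as was showing 4 tRNAs by their fold change or abundance. A list of copies written earlier by name (10 tested, 0 called) held rows that did not match and was replaced. Sequences are those of GENCODE M21 transcripts. The members and lists were chosen with earlier results of these data known. All members are described. Of each other list the called genes were named, up to 3, or otherwise the 2 of smallest p, and markers only beside a result. Replicates were not duplicates (chi-square per gene 6.18 to 26.83). Same-numbered libraries did not deviate together.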

Additional observations from a re-analysis of the deposited data

How the results depend on the processing

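Of 540 values of single mitochondrial genes under alternatives, 519 stayed on the same side of the threshold as in the reported fit, and no called value changed sign. Most of these values were not called in either fit. The call of mt-Tc relative to the mitochondrial total was kept in only 5 of 11 alternatives. Genes called, 616 in the reported fit, were 1001 with DESeq2, 1951 with no filter on low counts and 162 to 461 when each library was left out; the cause was not tested. Mitochondrial rows called were 2 with DESeq2, 4 with no filter (mt-Tc, mt-Ty, mt-Nd3 and mt-Te, where 5.72% of genes were called) and 0 to 2 with a library left out. With no filter the SE of abundant rows did not follow their spread, so calls of that fit do not compare with the others. The 2 called nuclear list members became 4 with DESeq2, 7 with no filter and 1 to 3 with a library left out. Relative to the mitochondrial total, 892 genes and 3 mitochondrial rows were called with DESeq2, 1512 and 4 with no filter, and 204 to 515 and 0 to 2 with a library left out. The count of 3 genes with shares that did not overlap was 1 with protein-coding counts as the denominator and 3 to 6 with a library left out, 6 without ADCY3∆AT replicate 3. With upper-quartile scaling, 282 genes were called higher and 274 lower, beside 377 and 239 in the reported fit. Replicate numbers did not pair the libraries (correlations of deviations 0.00, -0.01 and -0.05 for replicates 1, 2 and 3). With the replicate block 324 genes, 0 mitochondrial rows and 1 nuclear list member were called. Low counts limit several tRNA rows, and unknown strand and identical copies limit several others.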
